A study of Mus musculus with 56 samples.

Results

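Hearts of day-fed and night-fed mice were compared at zeitgeber time 12 (ZT12, 12 h after lights on), the moment at which the lights go off. Of the 56 heart libraries of the series, 8 were chosen by their labels, 4 from daytime-restricted feeding (DRF) and 4 from nighttime-restricted feeding (NRF), both at ZT12. All mice were female C57BL/6J, aged 9 weeks, first kept on unrestricted chow in cycles of 12 h light and 12 h dark, and then fed for 7 days in the light (DRF) or in the dark (NRF). The DRF hearts therefore came from the end of the feeding period, and the NRF hearts came from the end of the fasting period at the same clock time. Whole hearts were frozen, and polyA RNA was sequenced without strand information. The labels number the replicates and name no cage or batch, so the p-values measure the spread between these samples. Genes are described across all 22864 listed rows, of which 13869 had a mean of at least 1 TPM over all libraries and were tested. TPM (reads per base of exon length, scaled to the same total in every library) was recomputed from the deposited values.

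The circadian clock is a feedback loop in which BMAL1 (the product of Arntl) and CLOCK switch on genes through E-box sequences, among them the Per and Cry repressors that later shut BMAL1 and CLOCK off. Light sets the clock of the brain, whereas meals are a strong time cue for clocks of peripheral organs. The heart burns mainly fatty acids and burns more of them during fasting, when PPAR and FOXO transcription factors are active, and it takes up more glucose after meals, when insulin is high. At ZT12 the regimens share the light cue and differ in the state of feeding. They also differ in the meal times of the 7 days before, and these differences cannot be told apart here.

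The 8 libraries held 34.0 to 49.1 M (mega) recovered reads, with means of 40.02 ± 6.62 M in DRF hearts and 38.6 ± 3.39 M in NRF hearts (n = 4 each, ± SD; exact permutation test, two-sided, p = 0.771). The protocol names no molecular identifiers, and these ± values are the SD between hearts, not counting error. Cardiomyocyte markers were high in every library, with a summed level of 28709 ± 2424 TPM in DRF hearts and 30108 ± 1158 TPM in NRF hearts (n = 4 each, ± SD; exact permutation p = 0.343), and each library was most like the other libraries of its own group among the 14 groups. Markers of other tissues differed widely between hearts, and the erythroid sum was above the cardiomyocyte sum in DRF heart 1 and NRF heart 4. The 5 atrial markers summed to 957, 3057, 4657 and 1973 TPM in DRF hearts and 553, 1630.1, 258 and 189 TPM in NRF hearts, the 5 erythroid markers to 31402, 18107, 4889.8 and 7046 TPM in DRF hearts and 2787, 3638, 2182 and 42595 TPM in NRF hearts, and the 6 adipocyte markers to 98.1, 165, 109.8 and 72.2 TPM in DRF hearts and 181, 106, 91.8 and 14.001 TPM in NRF hearts. None of 18 library measures passed an exact permutation test over the 70 arrangements of the libraries after adjustment (lowest adjusted p = 0.45), where the smallest unadjusted p the design allows is 0.0286. Atrial markers came closest together with fibroblast markers (exact permutation p = 0.0571 each). In whole hearts, fewer cells of a type and less RNA per cell cannot be told apart.

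**Figure D1:**
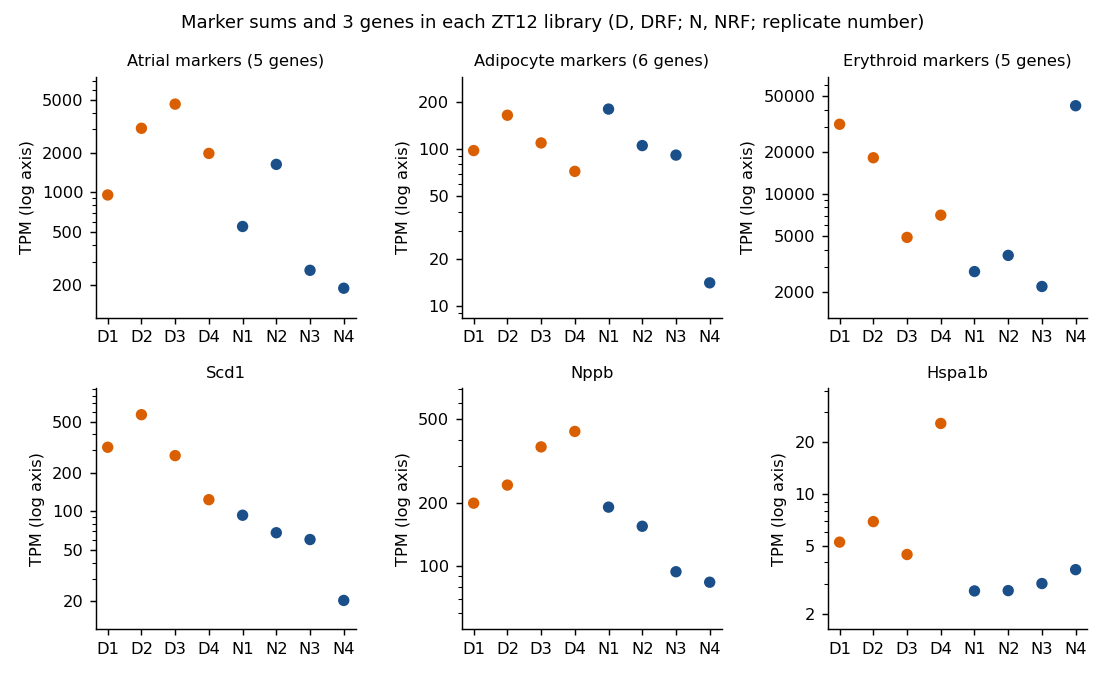
Summed TPM of marker lists and TPM of 3 genes (log axes) in each ZT12 library, D1 to D4 for DRF (orange) and N1 to N4 for NRF (blue). The atrial sum ran from 957 to 4657 TPM under DRF and from 189 to 1630 TPM under NRF, so the groups overlapped, and the erythroid sum was highest in NRF heart 4.

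At the end of their feeding period, DRF hearts carried less RNA of several clock repressors, of some fat-burning genes and of some genes that respond to fasting than the NRF hearts did at the end of their fast. They carried more RNA of the clock activators Arntl and Clock and of enzymes that build and desaturate fatty acids. RNA of the transferrin receptor Tfrc and of inducible heat shock proteins was higher as well. The heat shock genes did not pass the test without DRF heart 4. Among genes that passed the test, the largest fall was in Ciart, a repressor of the clock (5.79-fold lower mean TPM under DRF), and the largest rise was in Scd1, the main stearoyl-CoA desaturase (5.28-fold higher). In all, 1074 of 13869 genes (7.74%) differed by limma at a Benjamini-Hochberg adjusted p under 0.05, of which 176 (1.27%) were higher and 898 (6.47%) were lower under DRF. Most changes were small. The median absolute log2 difference of the 1074 genes was 0.38, and 23 of them reached 1 (11 higher and 12 lower). Differences are on the log2(TPM + 1) scale, DRF minus NRF, with the standard error (SE) of the fit, on which changes near 1 TPM come out too small.

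The 4 DRF and 4 NRF libraries did not overlap for 922 of the 1074 genes (6.65% of the genes tested), 159 higher (1.15%) and 763 lower (5.5%). Without regard to the test, they did not overlap for 1890 genes (13.6%). The excess of lower genes depended on the scaling. The median log2 difference of all genes was -0.06, and with a median-of-ratios rescaling it was 0.01, with 648 genes higher (4.67%) and 814 lower (5.87%), so that the share of lower genes was 83.6% with the TPM sum and 55.7% with the rescaling. Both scalings called 930 genes in the same direction, 176 higher and 754 lower. The count also rested on single libraries, and fell to 673 without DRF heart 1, 370 without DRF heart 3, 588 without NRF heart 1, 675 without NRF heart 2 and 448 without NRF heart 3. Of 100 named genes that were called, 42 were called in all 8 fits that left out 1 library. Among genes with under 2164 bases of exon 45 were higher and 92 lower, and among genes with at least 6276 bases 31 were higher and 323 lower. The level of long relative to short genes was lowest in DRF heart 3 (-0.19 on the log2 scale, against -0.06 to 0.06 under NRF), and its part in the counts was not tested.

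**Figure D2:**
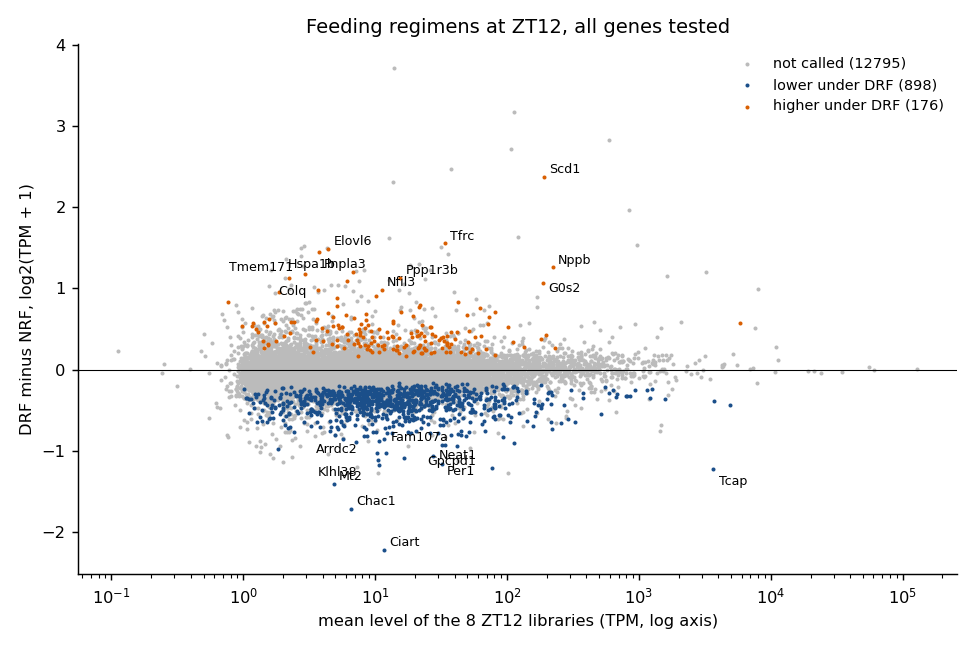
Log2 difference of each tested gene, DRF minus NRF, against its mean level in the 8 ZT12 libraries (TPM, log axis), with genes higher under DRF in orange, genes lower in blue and the others in grey. The 898 lower genes outnumber the 176 higher ones, while among genes that passed the test the largest rise, Scd1 (2.37), and the largest fall, Ciart (-2.22), are of like size.

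Several genes of the repressor arm of the clock were lower under DRF. Of 14 tested repressors and output factors, 6 fell and 1 rose (6.47% and 1.27% of all genes), with a median difference of -0.52 against -0.06 for all genes. The count of 6 was 3 without DRF heart 3 or NRF heart 3. Ciart was at 3.34, 3.15, 3.57 and 3.63 TPM in DRF hearts and 24.7, 17.5, 21.1 and 15.97 TPM in NRF hearts. All 4 DRF hearts were far below the lowest NRF heart, for a difference of -2.22 ± 0.36 (limma adjusted p = 0.000217). Per1, a period gene that also answers to glucocorticoids, was at 15.4, 18.01, 20.3 and 24.04 TPM in DRF hearts and 43.03, 41.9, 49.8 and 42.6 TPM in NRF hearts (-1.16 ± 0.36, limma adjusted p = 0.0381). Its groups did not overlap, yet the call was kept in only 1 of the 8 fits without a library, with an adjusted p of up to 0.115 without NRF heart 3. Per3 was at 12.2, 11.6, 7.52 and 10.4 TPM in DRF hearts and 16.4, 14.9, 18.9 and 16.5 TPM in NRF hearts (-0.65 ± 0.18, adjusted p = 0.0209). Smaller falls were those of the cryptochrome Cry2 (-0.46 ± 0.11, adjusted p = 0.00466), of Bhlhe41, which encodes the E-box repressor DEC2 (-0.61 ± 0.14, adjusted p = 0.00561), and of Hlf, a PAR bZIP output factor (-0.50 ± 0.15, adjusted p = 0.0272).

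Dbp, the best known output gene of the clock, was at 58.3, 60.7, 54.2 and 63.6 TPM in DRF hearts and 160.4, 162, 145 and 115 TPM in NRF hearts. The lowest NRF heart held more than the highest DRF heart, but with the spread shared over all 14 groups the difference of -1.27 ± 0.42 missed the threshold (limma adjusted p = 0.0527). In a fit of the 8 ZT12 libraries alone it passed (adjusted p = 0.000594). Dbp shares exon sequence with Sphk2, and the reads of the pair cannot be told apart without strand. Nr1d2, Tef and Nr1d1 had differences of -0.53, -0.46 and -0.56 (adjusted p = 0.068, 0.064 and 0.208), Per2 and Bhlhe40 had -0.25 and -0.34 (adjusted p = 0.55 and 0.358), and Cry1 had 0.07 (adjusted p = 0.835).

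Of 5 tested clock activators and ROR receptors, 2 rose and 0 fell, beside 1.27% and 6.47% of all genes. Arntl was at 1.32, 1.01, 1.65 and 1.09 TPM in DRF hearts and 0.477, 0.201, 0.139 and 0.253 TPM in NRF hearts. The lowest DRF heart held more than the highest NRF heart, and the difference on the log scale was 0.84 ± 0.23 (limma adjusted p = 0.0183). Its adjusted p was 0.0814 without DRF heart 3, 0.0693 without NRF heart 3 and 0.0558 with the summed atrial, adipocyte and erythroid markers as covariates. Clock rose by 0.44 ± 0.09 (adjusted p = 0.00203), from 5.01 ± 0.238 TPM under NRF to 7.18 ± 0.481 TPM under DRF (n = 4 each, ± SD). Nfil3, a repressor that competes with the PAR bZIP factors for D-box sites, rose as well, at 12.7, 13.2, 16.9 and 17.96 TPM in DRF hearts and 6.41, 6.64, 8.38 and 7.13 TPM in NRF hearts (0.99 ± 0.25, adjusted p = 0.00941). Its DRF hearts all stood above the highest NRF heart. Npas2 and Rora did not pass the test, with differences of 0.06 and -0.27 (adjusted p = 0.871 and 0.0846).

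The course of the NRF hearts through the day shows where ZT12 lies in these rhythms. Under NRF the mean level of Ciart was 7.63 ± 4.68 TPM at ZT8, 19.8 ± 3.9 TPM at ZT12 and 6.24 ± 2.0 TPM at ZT16, and under DRF it was 3.76 ± 1.29, 3.42 ± 0.221 and 2.3 ± 2.51 TPM (n = 4 each, ± SD). Dbp likewise had its highest NRF mean at ZT12, whereas its highest DRF mean was 74.6 ± 5.2 TPM at ZT8. Arntl had its lowest mean at ZT12 under both regimens, 1.27 ± 0.284 TPM in DRF hearts and 0.268 ± 0.147 TPM in NRF hearts.

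The promoters of 4 of these clock genes are given because each holds a match to an element through which the clock acts. The 250 bases before the start are from RefSeq (build GRCm38.p6), written from 5′ to 3′ on the strand of the gene. Capitals mark the E-box (CACGTG) in Ciart (chr3:95882229-95882478, minus strand) and Per1 (chr11:69098699-69098948, plus strand), the D-box (TTATGTAA) in Per3 (chr4:151044666-151044915, minus strand), and the element of ROR and REV-ERB receptors (NTAGGTCA, here on the opposite strand) in Nfil3 (chr13:52981040-52981289, minus strand).
Ciart: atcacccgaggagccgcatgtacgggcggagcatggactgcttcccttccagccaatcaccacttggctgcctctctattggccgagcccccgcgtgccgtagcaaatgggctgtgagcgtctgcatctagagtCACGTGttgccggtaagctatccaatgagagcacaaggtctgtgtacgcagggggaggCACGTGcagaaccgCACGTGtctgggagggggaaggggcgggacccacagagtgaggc
Per1: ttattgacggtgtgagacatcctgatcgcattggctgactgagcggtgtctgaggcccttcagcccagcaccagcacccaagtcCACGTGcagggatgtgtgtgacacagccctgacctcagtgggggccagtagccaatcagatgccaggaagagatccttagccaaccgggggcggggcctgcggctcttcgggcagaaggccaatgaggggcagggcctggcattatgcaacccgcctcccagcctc
Per3: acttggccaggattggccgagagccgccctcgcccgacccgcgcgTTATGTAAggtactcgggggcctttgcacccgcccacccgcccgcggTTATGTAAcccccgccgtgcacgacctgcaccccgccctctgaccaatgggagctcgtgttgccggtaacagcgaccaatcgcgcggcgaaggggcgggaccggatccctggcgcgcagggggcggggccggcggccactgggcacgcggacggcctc
Nfil3: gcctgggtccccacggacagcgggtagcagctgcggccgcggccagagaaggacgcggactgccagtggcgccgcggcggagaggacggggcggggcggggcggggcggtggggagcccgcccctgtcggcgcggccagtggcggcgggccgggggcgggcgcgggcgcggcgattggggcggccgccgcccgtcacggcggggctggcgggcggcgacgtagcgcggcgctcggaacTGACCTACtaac
Ciart, which had the largest fall, holds 3 E-boxes that begin 116, 58 and 44 bases before the start. Per1 holds 1 at 166 bases, Per3 holds 2 D-boxes at 205 and 158 bases, and Nfil3 holds its receptor element at 12 bases. Cry1 and Tef, which were not called, hold an E-box as well, as does Bhlhe41, which fell. A match is a description and not a shown binding site. Among genes with a window in the table (250 bases before to 50 after a start, any start of the gene, both strands), an E-box was found in 13.2% of 707 lower genes, 12.2% of 131 higher genes and 11.6% of all 9901 tested genes. The D-box was found in 0.283%, 0% and 0.687%, and the ROR and REV-ERB element in 2.83%, 3.05% and 2.28%. Of all 32851 windows, 7.15% held an E-box, 0.938% a D-box and 2.59% the ROR and REV-ERB element.

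**Figure D3:**
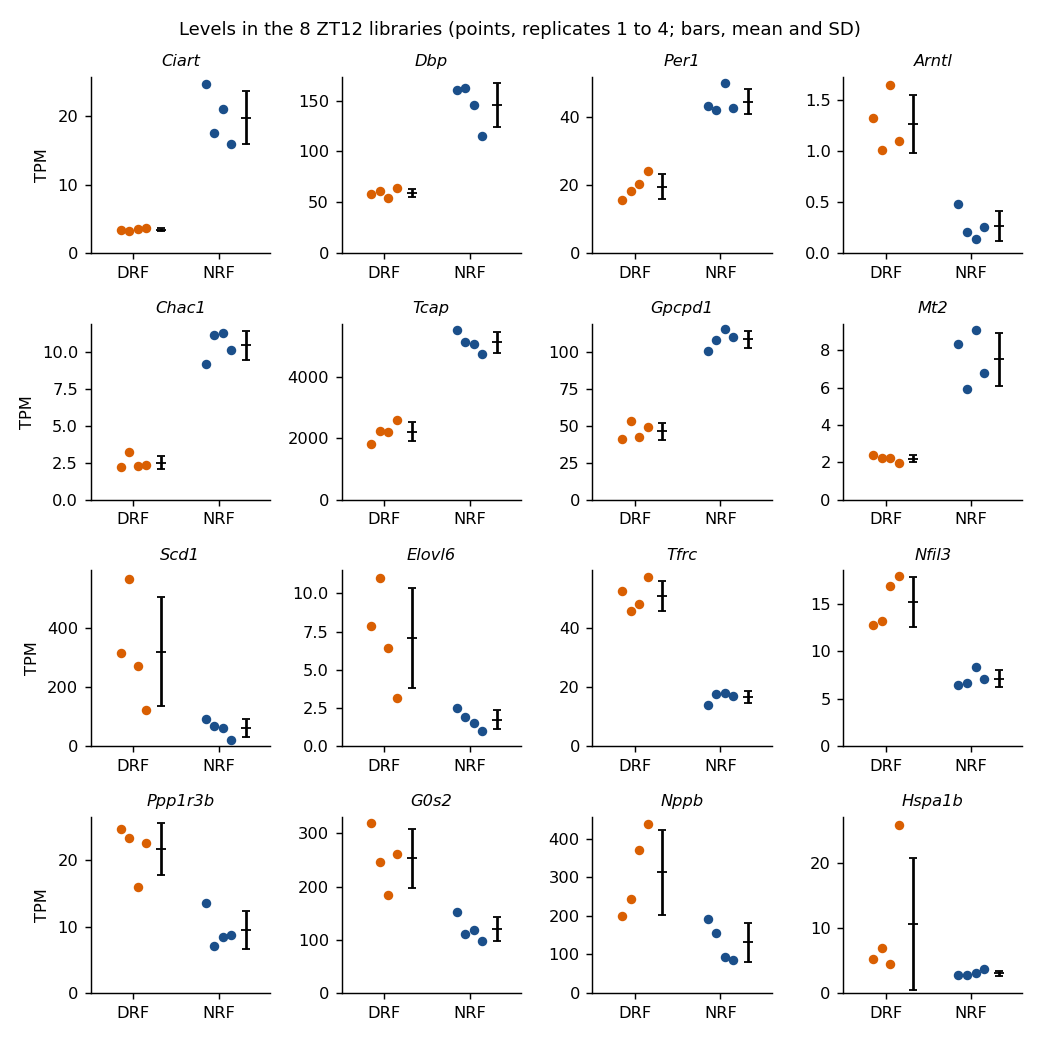
Levels (TPM) of single genes in the 4 DRF and 4 NRF libraries at ZT12, with points for replicates 1 to 4 and bars for mean and SD. Ciart stayed between 3.15 and 3.63 TPM under DRF while the NRF hearts lay between 15.97 and 24.7 TPM, and Tfrc showed the reverse order without overlap.

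Several genes of fatty acid synthesis were higher at the end of feeding. Of 17 tested members, 6 rose (1.27% of all genes did) and 0 fell, 10 had positive and 7 negative differences, and the median was 0.29. The count of 6 was 3 without DRF heart 1, 2 or 3 or NRF heart 4. Scd1, which puts the first double bond into saturated fatty acids, was at 316, 567, 272 and 124 TPM in DRF hearts and 93.4, 68.3, 60.4 and 20.3 TPM in NRF hearts. Every DRF heart was above the highest NRF heart, and the spread within each group was wide, for a difference of 2.37 ± 0.67 (limma adjusted p = 0.0228). The elongase Elovl6 was at 7.87, 10.995, 6.42 and 3.12 TPM in DRF hearts and 2.51, 1.91, 1.53 and 1.03 TPM in NRF hearts (1.49 ± 0.35, adjusted p = 0.00614), and Pnpla3, a lipid droplet protein induced by insulin, was at 5.84, 9.72, 5.35 and 3.02 TPM in DRF hearts and 2.0, 1.06, 2.13 and 0.723 TPM in NRF hearts (1.45 ± 0.30, adjusted p = 0.00206). Neither overlapped between the groups. The rise also held for Acaca, the enzyme that makes malonyl-CoA (0.89 ± 0.25, adjusted p = 0.0228), for Acly, which makes cytosolic acetyl-CoA from citrate (0.83 ± 0.18, adjusted p = 0.00359), and for Scd2 (0.53 ± 0.17, adjusted p = 0.0414), although Acaca was called in 4 and Scd2 in 1 of the 8 fits without a library. Fasn, fatty acid synthase, was at 52.2, 98.7, 41.6 and 22.8 TPM in DRF hearts and 25.8, 21.9, 15.8 and 8.95 TPM in NRF hearts. Its groups overlapped and the difference of 1.43 ± 0.47 missed the threshold (adjusted p = 0.0523), as did that of Thrsp (0.73, adjusted p = 0.0889). Srebf1 and Mlxipl, the transcription factors of this pathway, had 0.19 and -0.19 (adjusted p = 0.387 and 0.549).

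Fat cells also express these enzymes. The adipocyte sum was highest in NRF heart 1 and, among the DRF hearts, in heart 2, where Scd1 was highest, and it was lowest in NRF heart 4, where Scd1 was lowest. Adipoq, which only fat cells express, was at 15.9, 32.7, 17.5 and 9.47 TPM in DRF hearts and 22.4, 9.93, 11.02 and 1.34 TPM in NRF hearts, and was not called (adjusted p = 0.346). With the atrial, adipocyte and erythroid sums as covariates, Scd1 differed by 1.6 (limma adjusted p = 0.00229), Elovl6 by 1.15 (0.00313), Pnpla3 by 1.27 (0.00125) and Fasn by 0.89 (0.0281). Beyond these fits the part of fat tissue in the rise was not tested. Scd1 lost its call without any 1 of 5 libraries (adjusted p of 0.0551, 0.0763 and 0.0625 without DRF hearts 1, 2 and 3, and of 0.0541 and 0.0767 without NRF hearts 3 and 4), whereas Elovl6, Pnpla3 and Acly kept theirs in all 8 fits.

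Of 19 tested genes of cholesterol synthesis and uptake, 1 fell and 0 rose, beside 7.74% of all genes called, with a median of 0.08. The one called was Fdft1, squalene synthase (-0.32 ± 0.08, adjusted p = 0.0114, 0.0676 without DRF heart 3). Hmgcs1, which feeds the pathway, had 0.20 (adjusted p = 0.0836), and it was one of 2 genes of the list that rose with the median-of-ratios rescaling (0.28, adjusted p = 0.00959).

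PPAR responsive genes of fat use were lower in part. Of 21 tested, 6 fell (6.47% of all genes did) and 0 rose, with a median of -0.26 against -0.06 for all genes, and 3 fell with the median-of-ratios rescaling and 2 with the marker covariates. The count of 6 was 1 without DRF heart 1 or 3 or NRF heart 1 or 3, and 3 without DRF heart 2. Cpt1a, one form of the enzyme that lets fatty acids into mitochondria, was at 26.996, 30.1, 28.5 and 28.6 TPM in DRF hearts and 48.04, 43.4, 53.6 and 34.8 TPM in NRF hearts. Its groups did not overlap (-0.62 ± 0.17, limma adjusted p = 0.0209), but the call was lost in 4 of the 8 fits without a library. Slc25a34, a mitochondrial carrier, was at 115, 126, 145 and 139 TPM in DRF hearts and 215, 167, 213 and 186 TPM in NRF hearts (-0.57 ± 0.13, adjusted p = 0.00577) and kept its call in all 8. Further falls were in Retsat (-0.47 ± 0.14, adjusted p = 0.0311), the fatty acid transporter Cd36 (-0.32 ± 0.09, adjusted p = 0.0305) and lipoprotein lipase Lpl (-0.32 ± 0.10, adjusted p = 0.0315). Pdk4, which shuts pyruvate out of oxidation during fasting, was not called at this hour, at 123, 169.7, 158 and 111 TPM in DRF hearts and 158, 137, 153 and 67.9 TPM in NRF hearts (0.18 ± 0.46, adjusted p = 0.853). The same was true of Ucp3 (-0.83, adjusted p = 0.24) and Angptl4 (0.38, adjusted p = 0.735). Of 18 enzymes of mitochondrial beta-oxidation 2 fell, beside 6.47% of all genes. Cpt2 (-0.42 ± 0.10, adjusted p = 0.00594) and Acad11 (-0.28 ± 0.08, adjusted p = 0.0278) were called, with a list median of -0.07. Cpt2 kept its call in all 8 fits without a library and Acad11 in 2 (without DRF heart 4 or NRF heart 4), and neither passed with the marker covariates (adjusted p = 0.0553 and 0.175).

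Genes of triglyceride handling went in both directions. G0s2, an inhibitor of the lipase ATGL that is induced by feeding, was at 319.6, 247, 184 and 262 TPM in DRF hearts and 153, 111, 118 and 98.6 TPM in NRF hearts (1.06 ± 0.26, limma adjusted p = 0.00918). No NRF heart reached the lowest DRF heart. Among the genes that build triglycerides, Gpam (-0.83 ± 0.19, adjusted p = 0.00419) and Dgat2 (-0.64 ± 0.11, adjusted p = 0.000557) fell, as did the droplet coat gene Plin4 (-0.50 ± 0.15, adjusted p = 0.0276). Plin4 was called in 3 of the 8 fits without a library and not with the median-of-ratios rescaling or the marker covariates. In all, 1 of 12 tested members of the lipid droplet list rose and 3 fell, beside 1.27% and 6.47% of all genes. Both ketone body enzymes that were called also fell, Bdh1 (-0.92 ± 0.27, adjusted p = 0.0257) and Oxct1 (-0.29 ± 0.08, adjusted p = 0.0287), among 4 tested. Each kept its call in 2 of the 8 fits without a library (DRF heart 4 or NRF heart 4 left out) and in none with the marker covariates (adjusted p = 0.139 and 0.214), and the groups of Bdh1 overlapped.

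Targets of FOXO factors and brakes on insulin signalling were lower under DRF in part. Of 23 tested, 7 fell (6.47% of all genes did) and 0 rose, with a median of -0.30, and 4 fell without DRF heart 3 or NRF heart 3. Pik3ip1, an inhibitor of PI3 kinase, was at 22.7, 21.5, 22.3 and 20.4 TPM in DRF hearts and 35.2, 49.1, 45.8 and 40.2 TPM in NRF hearts. The highest DRF heart was below the lowest NRF heart (-0.93 ± 0.17, limma adjusted p = 0.000653). The atrophy ubiquitin ligase Fbxo32 (-0.80 ± 0.22, adjusted p = 0.0165), the factor Foxo3 itself (-0.61 ± 0.13, adjusted p = 0.00264) and the cyclin Ccng2 (-0.60 ± 0.11, adjusted p = 0.000609) fell too. Sqstm1, the cargo receptor p62 of autophagy, had the lowest adjusted p of the genes described here. It was at 158, 166, 160.3 and 174 TPM in DRF hearts and 266, 268, 288 and 264 TPM in NRF hearts, with little spread within either group (-0.72 ± 0.08, adjusted p = 1.35e-07), although its exons overlap those of Mrnip. Of 19 autophagy genes, 4 fell (6.47% of all genes did) and 0 rose, the others being Ulk1 and Atg13 of the initiation complex and Atg2a (-0.36, -0.30 and -0.38, adjusted p = 0.0446, 0.0138 and 0.00237). The count of 4 was 2 without DRF heart 1 or 3 or NRF heart 1 or 3 and 7 without NRF heart 4, and of these 3 genes Atg2a alone kept its call in all 8 fits.

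Of 21 tested glucose genes, 1 rose and 2 fell, beside 7.74% of all genes called. Arrdc4, an arrestin induced by glucose, rose (0.48 ± 0.12, adjusted p = 0.00931), and Pfkfb1 (-0.69 ± 0.17, adjusted p = 0.00931) and Pdp1 (-0.26 ± 0.08, adjusted p = 0.0327) fell. The count of 2 was 0 without DRF heart 3 or NRF heart 3, 1 without DRF heart 4 or NRF heart 1 or 2 and 3 without DRF heart 1, and Arrdc4 lost its call without DRF heart 1 (adjusted p = 0.0582). Txnip, a relative of Arrdc4, was not called, at 344 ± 141 TPM in DRF hearts and 331 ± 77.6 TPM in NRF hearts (n = 4 each, ± SD; limma adjusted p = 0.989). Ppp1r3b, which targets a phosphatase to glycogen and favours glycogen storage, was among the 12 largest rises, at 24.7, 23.3, 15.9 and 22.6 TPM in DRF hearts and 13.6, 7.01, 8.45 and 8.7 TPM in NRF hearts (1.14 ± 0.26, adjusted p = 0.00419). Here the groups were apart, with DRF heart 3 nearest to the NRF hearts.

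**Figure D4:**
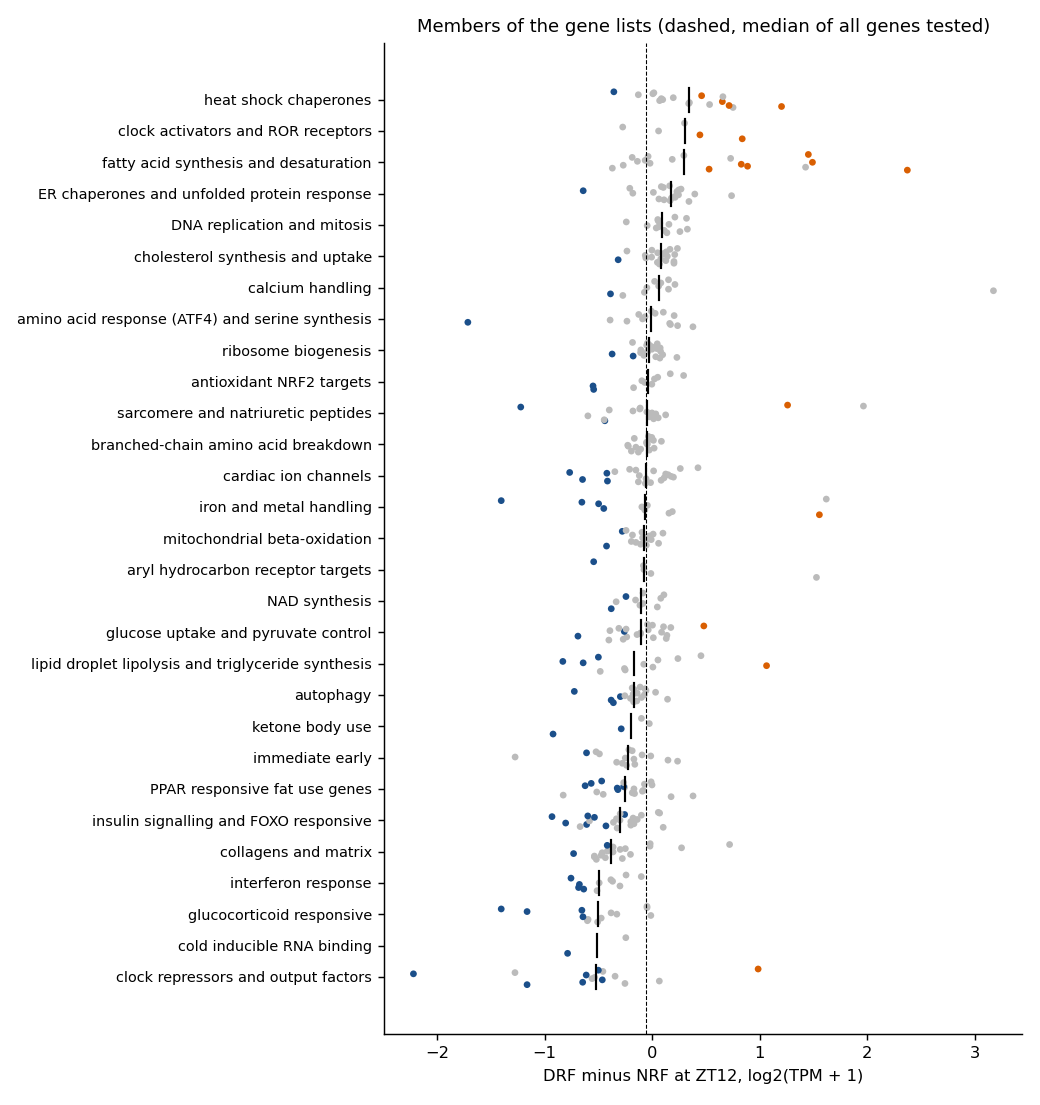
Log2 difference, DRF minus NRF at ZT12, of every tested member of the gene lists, with called members in colour and the dashed line at the median of all genes tested (-0.06). Members of fatty acid synthesis that were called all lie to the right of 0 and called members of the FOXO responsive list all lie to the left.

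Chac1 and the metallothionein Mt2 were among the 12 largest falls. Chac1, which breaks down glutathione and is a target of ATF4, was at 2.23, 3.22, 2.26 and 2.35 TPM in DRF hearts and 9.22, 11.2, 11.3 and 10.2 TPM in NRF hearts. Every NRF heart held more than the highest DRF heart (-1.71 ± 0.31, limma adjusted p = 0.000557), while no other of 15 tested genes of the ATF4 and serine synthesis list was called. Mt2 was at 2.4, 2.22, 2.22 and 1.93 TPM in DRF hearts and 8.31, 5.94, 9.06 and 6.76 TPM in NRF hearts (-1.4 ± 0.31, adjusted p = 0.0032), and Mt1 was at 171, 190.0, 221 and 219 TPM in DRF hearts and 368, 298, 299 and 295 TPM in NRF hearts (-0.65 ± 0.15, adjusted p = 0.00457). Both were lower in all 4 DRF hearts than in any NRF heart. Mt2 rested on few reads and shares exon sequence with Gm45774. Klf9, like the metallothioneins and Per1 a gene that glucocorticoids induce, fell by 0.64 ± 0.14 on the log2 scale (adjusted p = 0.00419), and 4 of 13 tested genes of the glucocorticoid list fell (6.47% of all genes did) while 0 rose (median -0.51).

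Heat shock chaperones were the other way round, with 4 of 17 tested higher and 1 lower, beside 1.27% and 6.47% of all genes, and a median of 0.34. Hspa1b, the inducible HSP70, was at 5.23, 6.9, 4.43 and 25.8 TPM in DRF hearts and 2.72, 2.73, 3.0 and 3.62 TPM in NRF hearts. DRF heart 4 was far above the other 3 DRF hearts, which still lay above the NRF hearts (1.2 ± 0.36, limma adjusted p = 0.0322). Without DRF heart 4 the adjusted p was 0.204, and it was 0.0782, 0.0718 and 0.0803 without NRF hearts 1, 2 and 3. Hsph1, an HSP110 co-chaperone, was at 15.5, 16.5, 15.5 and 32.9 TPM in DRF hearts and 11.9, 10.1, 11.3 and 11.6 TPM in NRF hearts (0.72 ± 0.19, adjusted p = 0.0137), and Hsp90aa1 was at 65.3, 81.2, 70.6 and 146 TPM in DRF hearts and 63.4, 50.2, 49.3 and 55.6 TPM in NRF hearts (0.65 ± 0.21, adjusted p = 0.0472). Both were again highest in DRF heart 4. Chordc1 rose as well (0.46 ± 0.14, adjusted p = 0.0318), and the count of 4 chaperones called higher was 0 without DRF heart 4, 1 without NRF heart 2 or 3, 2 without NRF heart 1 or with the marker covariates, and 7 with the median-of-ratios rescaling. Hspa1b and its near-identical neighbour Hspa1a can share reads, and Hspa1a, named here for that reason after its values were seen, had 0.75 ± 0.30 (adjusted p = 0.116). The cold-inducible RNA-binding gene Cirbp, which rises when body temperature falls, was lower under DRF, at 35.4, 31.01, 31.1 and 25.5 TPM in DRF hearts and 53.8, 55.7, 63.7 and 42.7 TPM in NRF hearts (-0.79 ± 0.18, adjusted p = 0.0054), and Rbm3 of the same list had -0.24 (adjusted p = 0.384).

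The 250 bases before the start of Hspa1b (RefSeq, GRCm38.p6, chr17:34959239-34959488, minus strand) are given because they hold a heat shock element of the form GAANNTTC, in capitals, 104 bases before the start.
Hspa1b: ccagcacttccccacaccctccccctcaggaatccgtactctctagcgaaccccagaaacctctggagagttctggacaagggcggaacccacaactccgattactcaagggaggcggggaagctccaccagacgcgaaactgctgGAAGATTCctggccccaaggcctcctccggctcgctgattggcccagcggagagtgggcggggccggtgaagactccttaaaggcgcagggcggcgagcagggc
That form was found in 9.92% of the higher genes with a window, 6.22% of the lower genes and 6.93% of all tested genes with a window, and in 7.86% of all windows.

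Of 20 chaperones and regulators of the endoplasmic reticulum 1 was called, beside 7.74% of all genes. Herpud1, which acts in the disposal of misfolded proteins, fell by 0.64 ± 0.13 on the log2 scale (adjusted p = 0.00194), while the list median was 0.17. In the iron and metal list, 1 of 11 tested members rose and 4 fell, beside 1.27% and 6.47% of all genes. Tfrc, the receptor that brings iron into cells, was at 52.5, 45.4, 47.9 and 57.1 TPM in DRF hearts and 13.8, 17.7, 17.98 and 17.1 TPM in NRF hearts. Its mean was 3.05-fold higher under DRF, with no overlap (1.55 ± 0.26, limma adjusted p = 0.000346). Slc30a1, a zinc exporter, fell by 0.50 ± 0.12 on the log2 scale (adjusted p = 0.00752). Both called antioxidant genes, Gclm (-0.55 ± 0.09, adjusted p = 0.000401) and Nqo1 (-0.54 ± 0.10, adjusted p = 0.0011), fell among 10 tested NRF2 targets (6.47% of all genes did). The list median was -0.04, and with the median-of-ratios rescaling 2 members rose and 2 fell.

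Of 17 tested genes of the sarcomere and natriuretic peptides, 1 rose and 2 fell, beside 7.74% of all genes called. Tcap, which caps titin at the Z-disc of the sarcomere, was at 1824, 2241, 2194 and 2593 TPM in DRF hearts and 5549.5, 5132, 5089 and 4742 TPM in NRF hearts. It was lower in every DRF heart, and the groups lay far apart (-1.22 ± 0.23, limma adjusted p = 0.000868). Myh6, the main myosin heavy chain of the adult mouse heart, fell by 0.44 ± 0.11 on the log2 scale (adjusted p = 0.00886, 0.0719 without DRF heart 3). Nppb, the natriuretic peptide BNP, was at 199.9, 244, 370.0 and 438 TPM in DRF hearts and 191, 155, 94.4 and 84.2 TPM in NRF hearts (1.26 ± 0.34, adjusted p = 0.0157). DRF hearts 3 and 4 were highest, NRF hearts 3 and 4 were lowest, and DRF heart 1 was only slightly above NRF heart 1. Atrial tissue expresses Nppb, and with the marker covariates its adjusted p was 0.0554 (difference 1.14). Its call was also lost without DRF heart 3 or 4 or NRF heart 3 or 4. Nppa, the atrial peptide, was at 437, 1489, 2252 and 1026 TPM in DRF hearts and 282, 854, 167 and 159 TPM in NRF hearts, with overlap and no call (adjusted p = 0.159), and Bmp10, which marks the right atrium, was at 3.24, 52.1, 54.9 and 1.67 TPM in DRF hearts and 0.0276, 0.0587, 0.0489 and 0 TPM in NRF hearts and not called (adjusted p = 0.14).

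Of 21 ion channel genes, 4 fell (6.47% of all genes did) and 0 rose. Among them were the potassium channels Kcna5 (-0.65 ± 0.19, adjusted p = 0.0252) and Kcnh2 (-0.42 ± 0.12, adjusted p = 0.031) and the sodium channel beta subunit gene Scn4b (-0.77 ± 0.21, adjusted p = 0.0166). None of the 4 kept its call in all fits without a library, and the count of 4 was 0 without DRF heart 3 or NRF heart 1 or 3, 1 without DRF heart 2 or with the marker covariates, and 2 without DRF heart 1 or NRF heart 2. Of 11 calcium handling genes 1 was called, beside 7.74% of all genes, the calcium pump gene Atp2a2 (-0.39 ± 0.09, adjusted p = 0.00481), in all 8 such fits.

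Of the interferon list, 4 of 11 tested genes fell (6.47% of all genes did) and 0 rose, with a median of -0.49. Rsad2, an antiviral enzyme, was at 15.1, 14.8, 11.3 and 18.5 TPM in DRF hearts and 29.5, 25.2, 21.5 and 26.5 TPM in NRF hearts (-0.75 ± 0.18, limma adjusted p = 0.00623). All DRF hearts were below the NRF hearts. Ifit3 (-0.68 ± 0.17), Irf7 (-0.68 ± 0.18) and Ifit2 (-0.64 ± 0.16) fell as well (adjusted p = 0.0114, 0.0172 and 0.0094), and the count was 0 without DRF heart 3 and 3 to 6 in the other fits without a library. Of 20 collagen and matrix genes 2 fell, beside 6.47% of all genes. Col5a3 (-0.73 ± 0.17, adjusted p = 0.00495) and Timp3 (-0.42 ± 0.13, adjusted p = 0.0324) were called, and the list median was -0.38. This count of 2 was 1 without DRF heart 1 or 3 or NRF heart 1 or 3, 4 without DRF heart 2 and 7 without DRF heart 4, and 5 with the median-of-ratios rescaling. The fibroblast markers summed to 2136, 2494, 2267 and 2182 TPM in DRF hearts and 2805, 2758, 2504 and 2294 TPM in NRF hearts, lower under DRF apart from heart 2, and their part in the matrix genes was not tested.

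The other leading genes belong to no list. Gpcpd1, a glycerophosphocholine phosphodiesterase, was at 40.7, 52.97, 42.3 and 49.5 TPM in DRF hearts and 101, 108, 115 and 109.9 TPM in NRF hearts (-1.22 ± 0.17, limma adjusted p = 2.18e-05). Neat1, the long non-coding RNA that builds paraspeckles, was at 22.1, 18.6, 16.9 and 13.04 TPM in DRF hearts and 41.6, 42.04, 37.1 and 29.8 TPM in NRF hearts (-1.06 ± 0.20, adjusted p = 0.000842). Both were lower in every DRF heart than in any NRF heart. Klhl38 (-1.17 ± 0.30, adjusted p = 0.0109), Fam107a (-1.03 ± 0.22, adjusted p = 0.00309) and the arrestin Arrdc2 (-1.03 ± 0.22, adjusted p = 0.00305) fell as well, and Tmem171 (1.18 ± 0.20, adjusted p = 0.000401) and Colq, which anchors acetylcholinesterase at synapses (0.98 ± 0.16, adjusted p = 0.000346), rose. The exons of Klhl38 and Fbxo32 overlap those of Gm15943, and exon sequence is also shared with another gene by Acad11, Atp2a2, Bdh1, Bhlhe41, Cry2, Fdft1, Gclm, Irf7, Myh6, Oxct1, Pfkfb1, Pik3ip1, Plin4, Retsat, Slc30a1 and Timp3, whose reads cannot be told apart from those of the partner without strand. Of the 12 largest falls and 12 largest rises, 3 were predicted or unnamed genes.

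The same regimens were compared at ZT0, when the feeding states are the other way round, with DRF hearts at the end of the fast and NRF hearts at the end of feeding. Most genes called at ZT12 had the opposite sign there. Tfrc was higher under DRF at ZT12 and lower at ZT0, metallothioneins and Tcap were lower at ZT12 and higher at ZT0, and Ciart and Scd1 did not turn around. At ZT0, 1568 genes (11.3%) were called, 420 higher (3.03%) and 1148 lower (8.28%). The regimen difference itself differed between ZT12 and ZT0 for 2017 genes (14.5%), and 694 of the 1074 genes called at ZT12 were among them (64.6%, a share raised by the choice of these genes, since the ZT12 difference is part of the contrast), 143 of those higher and 551 of those lower at ZT12. By sign alone, 771 of the 1074 were opposite at ZT0, and the share among all genes tested was not counted. Of 251 genes called at both times, which are 23.4% of the ZT12 genes and 16.01% of the ZT0 genes, 244 were opposite and 7 had the same direction. At ZT24, the same clock hour in other libraries, 288 genes were called along with ZT12, 274 of them in the opposite direction (26.8% of the ZT12 genes and 23.4% of the 1233 genes, or 8.89% of those tested, called at ZT24).

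Of the named genes Tfrc had the largest difference between the times, 3.26 ± 0.37 (limma adjusted p = 3.73e-08). It was 1.55 at ZT12 and -1.7 at ZT0, with 15.3 ± 2.2 TPM in DRF hearts and 53.9 ± 18.9 TPM in NRF hearts at ZT0 (n = 4 each, ± SD). Mt2 went from -1.4 at ZT12 to 1.5 at ZT0 (difference -2.91, adjusted p = 5.97e-06). Nppb went from 1.26 to -1.51 (2.77, adjusted p = 5.96e-05), and Per1 from -1.16 to 1.37 (-2.53, adjusted p = 0.000481). Dbp and Rtn4r, the Nogo receptor, were not called at ZT12, yet their differences between the times were, at -2.72 (adjusted p = 0.00121) and 2.42 (adjusted p = 0.000257). In Rtn4r this came from ZT0, where it differed by -2.03. Tcap turned from -1.22 to 1.07 (adjusted p = 3.05e-06), Sqstm1 from -0.72 to 0.50 (adjusted p = 2.36e-10) and Cirbp from -0.79 to 1.04 (adjusted p = 2.55e-06). The chaperone Hsph1 turned from 0.72 to -0.86 (adjusted p = 4.01e-05).

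Other genes did not turn. Ciart had -2.22 at ZT12 and -0.08 at ZT0 (adjusted p = 0.924 at ZT0, 0.00239 for the difference between the times). Scd1 had 2.37 at ZT12 and 0.93 at ZT0, where it was not called, and the difference between the times was not called either (adjusted p = 0.34). Bdh1 had -0.92 and -1.03 and Oxct1 -0.29 and -0.38, and both were called lower at both times, with the limits of the ZT12 calls given above.

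Among the lists, the median difference of clock repressors and output factors was -0.52 at ZT12 and 0.39 at ZT0, and the difference between the times was called for 11 of the 14. For PPAR responsive genes the medians were -0.26 and 0.43 (11 of 21), for the FOXO responsive list -0.30 and 0.29 (13 of 23), for the glucocorticoid list -0.51 and 0.53 (8 of 13), and for heat shock chaperones 0.34 and -0.22 (8 of 17). The ER list had 0.17 and -0.71 (15 of 20). Fatty acid synthesis had 0.29 and -0.09 (5 of 17). The interferon list was negative at both times, with -0.49 and -0.23 (1 of 11). Over all genes tested the median was -0.06 at ZT12 and -0.05 at ZT0, and the difference between the times was called for 14.5%.

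**Figure D5:**
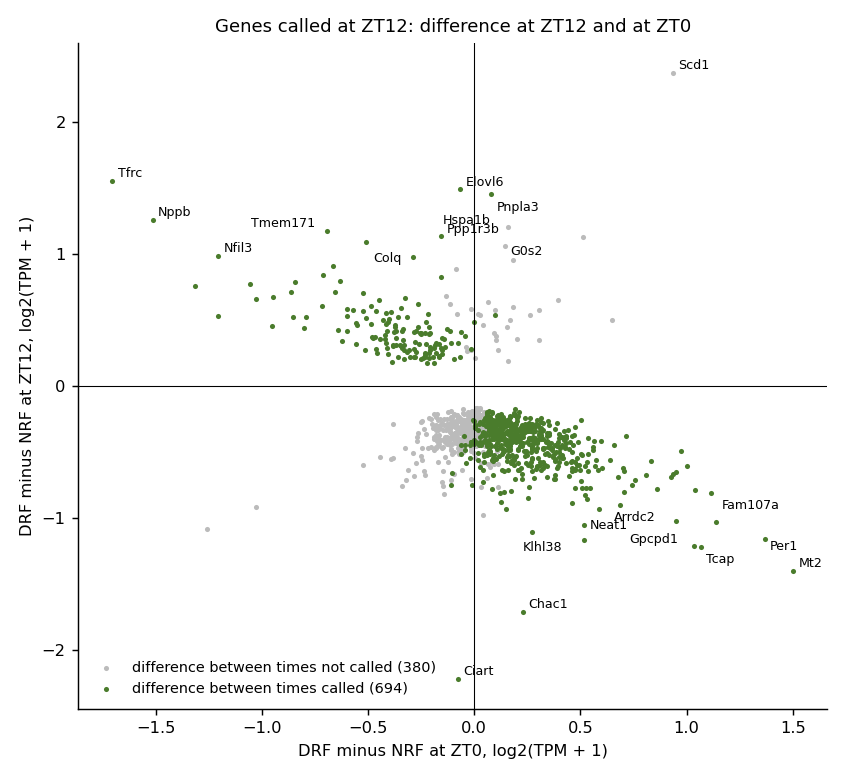
Log2 difference, DRF minus NRF, at ZT0 (horizontal) and ZT12 (vertical) of the 1074 genes called at ZT12, in green where the difference between the times was called (694) and in grey where it was not (380). Most green points lie at the upper left and lower right, where the sign differs between the times, as for Tfrc (-1.7 and 1.55).

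The neighbouring times set ZT12 within the day. At ZT8, with the same feeding states as at ZT12 but earlier in the meal and the fast, 54 genes (0.389%) were called, and the regimen difference at ZT12 differed from that at ZT8 for 46 genes (0.332%), or 1500 (10.8%) at an unadjusted p under 0.05. Of the 46, 36 were called at ZT12. Slc41a3, a magnesium transporter, had 0.77 at ZT12 and -0.42 at ZT8 (difference 1.19, limma adjusted p = 0.0126), while Fam107a (-1.03 and 0.45), Neat1 (-1.06 and 0.17), Pik3ip1 (-0.93 and 0.16) and Fam214a (-0.86 and 0.21) had positive, uncalled differences at ZT8 (adjusted p of the difference between the times = 0.0292, 0.0336, 0.0292 and 0.0292). Slc41a3 was at 47.7 ± 9.67 TPM at ZT8 and 15.4 ± 2.47 TPM at ZT12 under NRF, and at 35.4 ± 5.8 and 27.2 ± 5.68 TPM under DRF (n = 4 each, ± SD). Of the 54 genes of ZT8, 14 were also called at ZT12, all in the same direction. The count of 46 fell to 6 and 8 without DRF hearts 3 and 4, to 28, 24, 5 and 19 without NRF hearts 1, 2, 3 and 4, and was 178 with the median-of-ratios rescaling.

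At ZT16, 4 h after the feeding states changed over, 962 genes (6.94%) were called, and 138 of them were also called at ZT12, 118 in the same direction and 20 in the opposite one (12.8% of the ZT12 genes and 14.3% of the ZT16 genes). The regimen difference differed between ZT12 and ZT16 for 349 genes (2.52%), of which 164 were called at ZT12. The leading genes of this comparison changed sign between the times. Chac1 went from -1.71 at ZT12 to 0.88 at ZT16, where it was not called (limma adjusted p = 0.0685). Its difference between the times was -2.59 (limma adjusted p = 0.00056), with an NRF mean of 10.5 ± 0.986 TPM at ZT12 and 2.84 ± 1.21 TPM at ZT16. Ppp1r3b went from 1.14 to -1.2 (2.34, adjusted p = 0.000351), with NRF means of 9.43 ± 2.85 and 29.2 ± 4.91 TPM (n = 4 each, ± SD). Hspa1b (1.2 and -0.90, adjusted p of the difference 0.0186), G0s2 (1.06 and -0.68, 0.00612), Cited4 (0.74, not called at ZT12, and -0.98, 0.00341) and Klhl38 (-1.17 and 0.72, 0.00846) changed sign as well. At ZT16 Cited4 was called, while Hspa1b, G0s2 and Klhl38 were not. Ciart did not, with -1.34 at ZT16 (adjusted p = 0.0184). The count of 349 fell to 163 without DRF heart 4 and to 197 and 229 without NRF hearts 2 and 4, and was 707 with the median-of-ratios rescaling.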

How the data were processed

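The deposited table holds 1 value per gene and library, named TPM by the authors. The submitters' processing notes name HISAT2 2.0.5, featureCounts 1.5.0-p3 and mm10. The deposited values were not linear TPM but a library constant multiplied by log2(1 + scaled reads) and divided by exon length, a unit of their own on a log2 scale. Whole reads were therefore recovered from the steps of the values, with exon lengths from GENCODE M21 (GRCm38) for 22019 genes and lengths searched for in 832, of which 797 lie on chromosomes 17 to 19. Of 1279572 values, 99.9996% came within 0.1 of a whole read. Reads per library ranged from 29.5 to 53.4 M (median 37.7 M). Every column was matched to a sample, and no library repeated another.

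TPM was recomputed from the reads. Genes that averaged 1 TPM or more over all libraries were fitted with limma 3.58.1 in R 4.3.3 (lmFit and eBayes with trend) on log2(TPM + 1), with 14 group means over 56 libraries, and p-values were Benjamini-Hochberg adjusted over all genes tested, with a threshold of 0.05. Differences between times were contrasts in the same fit. Library measures were compared by exact permutation. Genes were named if among the 12 largest rises or falls of called genes whose libraries did not overlap, if among the 4 largest called members of a gene list (any member of the clock, PPAR, fatty acid and cholesterol lists), or if among the 6 largest differences between times; predicted genes were counted but not named, and some genes that the rule names are not reported here. The comparison, the gene lists and the marker lists were chosen with earlier results of these data known. Alternatives were another pseudocount, no filter or a stricter one, a median-of-ratios rescaling, a TPM sum without mitochondrially encoded genes, the values as deposited, limma voom on recovered reads, only the libraries compared, a replicate block, leaving out each ZT12 library, and, added after the data were seen, marker sums as covariates. Promoters came from RefSeq (GRCm38.p6), and 121 of 157 named genes had a window. In simulated data limma recovered 40% of 50 genes changed 1.25-fold, 74% of 50 changed 1.5-fold, 86% of 50 changed 2-fold and 96% of 50 changed 4-fold among 13869 genes, with 6 false calls of 154. Python 3.11.15, pandas 2.3.3 and scipy 1.17.1 were used.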

Additional observations from a re-analysis of the deposited data

Results flagged for a closer look

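In 12 of 230 groups of 4 libraries tested, 1 library lay far from the other 3 by Dixon's rule, and chance flags about 1 in 20 groups. Among genes these were Hspa1b in DRF heart 4 (25.8 TPM), Chac1 in DRF heart 2 (3.22 TPM), Nr1d2 in DRF heart 3 (48.2 TPM), Retsat in DRF heart 1 (21.0 TPM), Rtn4r in DRF heart 4 (15.0 TPM), Per1 in NRF heart 3 (49.8 TPM), Msmo1 in NRF heart 1 (3.35 TPM) and Npas2 in NRF heart 4 (0.549 TPM). Among library measures they were the erythroid sum in NRF heart 4 (42595 TPM), the brown adipocyte sum in NRF heart 1 (72.1 TPM), the nerve and Schwann sum in DRF heart 2 (10.7 TPM) and the level of long relative to short genes in NRF heart 2 (-0.0598 on the log2 scale).

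The regimen difference at ZT12 differed from that at another time by a limma contrast for 2017 genes against ZT0, 46 against ZT8 and 349 against ZT16. The 6 named genes with the largest difference against ZT0 (ZT12 minus ZT0, log2 scale) were Tfrc (3.26), Mt2 (-2.91), Nppb (2.77), Dbp (-2.72), Per1 (-2.53) and Rtn4r (2.42). Against ZT8 they were mt-Atp8 (-1.67), Fam107a (-1.48), Neat1 (-1.23), Slc41a3 (1.19), Pik3ip1 (-1.09) and Fam214a (-1.07). The mitochondrially encoded mt-Atp8, which shares sequence with mt-Atp6, was not called at ZT12, at 27.3, 23.96, 9.61 and 19.8 TPM in DRF hearts and 39.4, 30.04, 32.9 and 32.7 TPM in NRF hearts (-0.80 ± 0.26, limma adjusted p = 0.0505). Against ZT16 they were Chac1 (-2.59), Ppp1r3b (2.34), Hspa1b (2.10), Klhl38 (-1.89), G0s2 (1.74) and Cited4 (1.72).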

How the results depend on the processing

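No named gene reversed its direction at ZT12 in any of 18 alternatives. Of the 100 named genes called there, 39 kept their call in every alternative that tested them, among them 17 of the 24 largest changes. The stricter filter did not test genes with lower means, such as Elovl6 and Chac1. The count of 1074 genes at ZT12 fell to 573 with only the 8 libraries compared and to 566 with the replicate block, ranged from 370 to 1258 when 1 ZT12 library was left out, and was between 753 (marker covariates, 605 of them shared with the 1074) and 1462 (median-of-ratios rescaling) otherwise. The count of 2017 against ZT0 stayed within 1.5-fold under all alternatives, from 1680 to 2039 without 1 library. The count of 46 against ZT8 was 178 with the median-of-ratios rescaling, 74 with a TPM sum without mitochondrially encoded genes, 98 with the values as deposited, 115 with limma voom, 16 with only the libraries of the groups compared, 18 with the replicate block, and 5 to 42 without 1 library. The count of 349 against ZT16 was 707 with the rescaling, 776 with limma voom, 156 with the replicate block, and 163 to 372 without 1 library. Causes of these shifts were not tested, and the fits without a library also held fewer samples. The labels give each regimen replicates 1 to 4 without saying that a number marks a shared cage or day, and deviations of same-numbered hearts at ZT12 correlated at 0.04, 0.08, -0.03 and -0.02, so the numbers were not taken to pair the hearts. The medians of 11 of the 49 lists changed sign with the rescaling, all from between -0.07 and -0.01 to between 0.01 and 0.07. Depth was not recorded by the authors in the table used and was recovered, and 34.0 to 49.1 M reads per library limit genes near 1 TPM such as Arntl and Npas2.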

Other observations

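Calls in other gene groups at ZT12 stand beside 1.27% of all genes higher and 6.47% lower. Of 76 tested mitochondrial ribosomal protein genes, 3 rose and 0 fell, led by Mrps18b (0.41 ± 0.09, limma adjusted p = 0.00314), with Mrpl1 (0.28) and Mrps22 (0.22), and the median was 0.06. No gene passed among 82 nuclear respiratory chain subunits (median 0.04), 76 cytosolic ribosomal proteins (median 0.12), 17 enzymes of branched-chain amino acid breakdown (-0.05) or 14 genes of DNA replication and mitosis (0.09). Of 34 mitochondrially encoded genes, the ribosomal RNA mt-Rnr1 rose (0.57 ± 0.18, adjusted p = 0.0403) and 0 fell. The call was lost in 6 of the 8 fits without a library (all but those without DRF heart 1 or NRF heart 4), with a TPM sum without mitochondrially encoded genes and with the marker covariates. It was at 5945, 7292, 7852 and 6675 TPM in DRF hearts and 4060.1, 4657, 4804 and 5108 TPM in NRF hearts, and it is not a typical polyA transcript. The count of 3 mitochondrial ribosomal protein genes was 1 without DRF heart 3 and 9 with the median-of-ratios rescaling.

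Among genes of protein turnover and translation, 2 of 38 proteasome subunits fell, Psmd4 (-0.24 ± 0.05, adjusted p = 0.00258) and Psmd2 (-0.21 ± 0.06, adjusted p = 0.0234). Of 20 aminoacyl-tRNA synthetases, 3 fell, Lars (-0.28), Qars (-0.25) and Eprs (-0.24), and of 24 genes of ribosome biogenesis 2 fell, the RNA polymerase I subunit gene Polr1a (-0.37) and nucleolin, Ncl (-0.18). The 3 synthetase falls were 0 without DRF heart 3 or NRF heart 1, 1 without NRF heart 2 or 3, 6 without DRF heart 4 and 5 without NRF heart 4. The proteasome and ribosome biogenesis counts ranged from 1 to 3 and from 0 to 2 in the 8 fits without a library. In NAD metabolism, Nampt, the rate-limiting enzyme of NAD salvage and a gene driven by the clock, fell (-0.38 ± 0.10, adjusted p = 0.015), as did the deacetylase Sirt1 (-0.24 ± 0.08, adjusted p = 0.0435), among 10 tested, and neither was called without NRF heart 3 or with the median-of-ratios rescaling. Of 16 immediate early genes Zfp36, which speeds the decay of inflammatory mRNAs, fell (-0.61 ± 0.16, adjusted p = 0.0138) but was not called without DRF heart 1 or NRF heart 2 or 3, and of 5 aryl hydrocarbon receptor targets Nqo1 fell (-0.54).

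Among markers of other cell types, the endothelial receptor Tie1 (-0.39) and the mural cell genes Rgs5 (-0.34) and Kcnj8 (-0.36) fell, and Tagln rose (0.46) at a low level of 1.66 ± 0.181 TPM in DRF hearts and 0.945 ± 0.297 TPM in NRF hearts (n = 4 each, ± SD), with exons that overlap Pcsk7. All 4 calls were lost without DRF heart 1 or 3 or NRF heart 1 or 2 and with the marker covariates. No marker of atrial, fibroblast, macrophage, erythroid, adipocyte, skeletal muscle, lung, nerve, blood or brown fat lists passed the test. Polr1a, Mrps18b and Zfp36 share exon sequence with another gene as well.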
